A study of Mus musculus with 4 samples.

Results

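The BCL2 family is the set of proteins that decides whether the outer mitochondrial membrane is opened during apoptosis, and 10 of its genes were followed here in deltamethrin-treated mouse neuroblastoma cells. They were taken by gene symbol from the annotation of the array. Of the 10 genes, 9 had a probe set, each with 1, among 22206 probe sets and 19505 named genes in the table. The genes were the BH3-only members Bbc3, Pmaip1, Bcl2l11, Bmf and Hrk, the effectors Bax and Bak1, and the protective members Bcl2, Bcl2l1 and Mcl1. Bax, a main effector, had no probe set matched by symbol and was not analysed here, so Bak1 was the single effector described. A probe set for Bax may be among the 2634 that were unnamed here.

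Exposed cultures of Neuro-2a, a neuroblastoma line from an Albino strain A mouse, received the pyrethroid insecticide deltamethrin at 30 µM for 24 h. The controls received vehicle, 0.1% DMSO, and carried no other treatment. No DMSO content was given for the exposed cultures in the labels used here. Each group had 2 arrays of the Affymetrix Clariom S Mouse design, and array medians lay between 5.61 and 5.63 on the log2 scale. The labels do not say that arrays came from separate cultures, so the p-values measure the spread between these arrays, which may be technical. All arrays came from 1 cell line, and no batch label was available, so batch and treatment cannot be told apart. Of 10 listed markers of neuroblastoma and sympathetic neurons, 7 had a probe set, and all of these lay above the median of all probe sets (5.60). Of 16 measured probe sets for markers of fibroblasts, macrophages and glia, 2 had a group mean above it, the pericyte receptor gene Pdgfrb (6.14 with deltamethrin and 4.96 with vehicle) and the leukocyte phosphatase gene Ptprc (both groups). None of these marker genes passed the test over all probe sets. An unadjusted p below 0.05 in limma was found for 4 of 7 neuroblastoma markers and 2 of 16 others. The share over all probe sets was 13.7%. On both deltamethrin arrays 6 of the 7 neuroblastoma markers lay below both vehicle arrays and 1, Th, lay above. Among all probe sets, 43.9% had groups that did not overlap, in either direction. Estimates were -1.14 for Isl1 (limma adjusted p = 0.0740), -0.77 for Phox2a, -0.50 for Chga, 0.90 for Th and 1.18 for Pdgfrb (limma adjusted p = 0.225). The part of these shifts in the results below was not tested.

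In a healthy cell the protective proteins BCL2, BCL-XL (from Bcl2l1) and MCL1 together restrain the effectors BAX and BAK. BH3-only proteins answer stress by occupying the groove of the protective proteins, and some also activate the effectors directly, which then form pores that release cytochrome c. Much of this control is exerted after transcription, through phosphorylation, cleavage and degradation, but several BH3-only genes are switched on as genes, Bbc3 and Pmaip1 by p53 and Bcl2l11 by FOXO3 and CHOP. Neurons and neuroblastoma cells depend strongly on BCL2, BCL-XL and MCL1. Mcl1, Bcl2l1 and Bcl2l11 each make splice forms of different or opposite activity, and an array probing constant exons does not tell these forms apart.

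No member of the family passed the test. At an adjusted p below 0.05 in limma, 0 of 9 members rose and 0 fell, beside 0.432% of all probe sets that were called (79 rose and 17 fell). Before adjustment the count of members with p below 0.05 was again 0 of 9, against 13.7% of all probe sets. The smallest adjusted p among the members was 0.468, for Bbc3. The 2 deltamethrin arrays lay beyond both vehicle arrays for 3 of 9 members (33.3%), namely Bbc3 and Hrk above and Mcl1 below, where 43.9% of all probe sets had arrays that did not overlap. For 8 of 9 members the 95% interval of the fold change in signal lay within 2-fold in either direction, the exception being Bcl2l11. These intervals bound the change of signal. For the dim BH3-only probe sets described below, the change of the transcript may be larger. With 2 arrays per group the smallest change called anywhere in the table was 2.32-fold. Smaller changes of a member would therefore not have been called, and larger ones could be missed where the SE was wide. Smyd3, with a log2 fold change of 1.45 ± 0.29 (SE), was not called, and the SE of Bcl2l11 was 0.33.

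**Figure D1:**
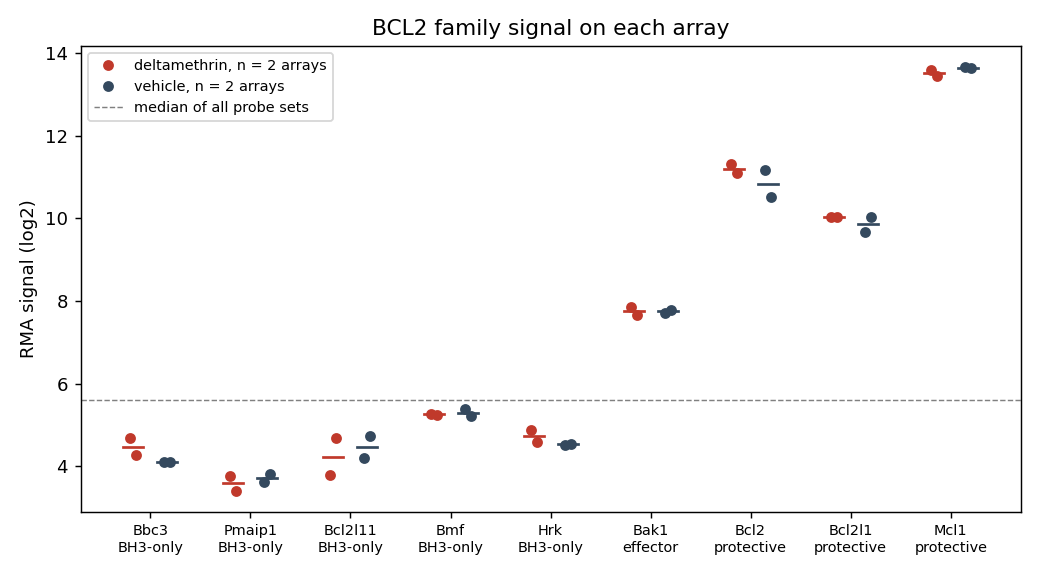
RMA signal (log2) of the 9 measured BCL2 family genes on each array, deltamethrin (red, left) and vehicle (dark blue, right), with short lines at the mean of 2 arrays and a dashed line at the median of all probe sets. The 5 BH3-only genes lie below the dashed line in both groups, the other 4 genes above it, and the groups lie close together for every gene.

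The 5 BH3-only probe sets were all dim, with group means between 3.59 and 5.30, below the median of all probe sets. Dim RMA values lie near background, and a change of a transcript there shows as a smaller change of signal. No detection call was used here, so it was not known which of them were above background. The probe sets of Bak1 and of the 3 protective genes lay above the median in both groups. Signals of different probe sets depend on their probes, so these levels do not rank the transcripts against each other.

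Bbc3 encodes PUMA, a p53 target that binds all protective members. Its signal was 4.68 and 4.27 on the deltamethrin arrays, against 4.10 and 4.10 on the vehicle arrays. Both deltamethrin arrays were above the vehicle arrays, but they differed from each other by 0.41, more than the difference between the group means. The log2 fold change was 0.38 ± 0.20 (SE, n = 2 per group; limma adjusted p = 0.468), with a 95% interval of -0.10 to 0.85. Without deltamethrin replicate 1 the estimate was 0.17, and without deltamethrin replicate 2 it was 0.58.

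Hrk encodes Harakiri, a BH3-only protein known from neurons deprived of growth factor. It was at 4.88 and 4.59 on the deltamethrin arrays and at 4.51 and 4.55 on the vehicle arrays. The groups did not overlap, although the lower deltamethrin array was close to the higher vehicle array. Its log2 fold change was 0.21 ± 0.18 (SE; limma adjusted p = 0.682; 95% interval -0.23 to 0.64).

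Bcl2l11 encodes BIM, which binds every protective member and can activate BAX and BAK. It had values of 3.78 and 4.68 on the deltamethrin arrays and 4.21 and 4.72 on the vehicle arrays, so the groups overlapped. Its replicate arrays differed by 0.90 for deltamethrin, the widest such gap among the measured members, and by 0.51 for vehicle, where Bcl2 had a wider one (0.65), and in both groups replicate 1 was the lower array. Its log2 fold change of -0.24 ± 0.33 (SE; limma adjusted p = 0.814) had a 95% interval of -1.03 to 0.56. The sign rested on single arrays: the estimate was 0.22 without deltamethrin replicate 1, 0.02 without vehicle replicate 2, -0.69 without deltamethrin replicate 2 and -0.49 without vehicle replicate 1.

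Pmaip1 encodes NOXA, which binds chiefly MCL1 and promotes its degradation, and is induced by p53 and by the ATF4 stress pathway. It was at 3.76 and 3.41 on the deltamethrin arrays and at 3.61 and 3.82 on the vehicle arrays, and the groups overlapped. The log2 fold change was -0.13 ± 0.20 (SE; limma adjusted p = 0.829; 95% interval -0.61 to 0.35). Bmf, whose protein is tethered to the cytoskeleton until released, had 5.27 and 5.25 with deltamethrin, against 5.38 and 5.21 with vehicle. Here the deltamethrin values lay between the vehicle values, and the log2 fold change was -0.04 ± 0.17 (SE; limma adjusted p = 0.953; 95% interval -0.44 to 0.37). Averaged over the 5 BH3-only probe sets, the signal was 4.47 and 4.44 on the deltamethrin arrays and 4.36 and 4.48 on the vehicle arrays, so the arrays of the 2 groups interleaved.

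Bak1 encodes BAK, the effector that resides in the outer mitochondrial membrane. It had 7.85 and 7.65 on the deltamethrin arrays and 7.70 and 7.79 on the vehicle arrays. The vehicle values lay inside the span of the deltamethrin values. The log2 fold change was 0.01 ± 0.17 (SE; limma adjusted p = 0.992; 95% interval -0.41 to 0.42), and its sign turned under quantile (-0.08) and cyclic loess scaling (-0.02).

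Bcl2, the founding protective gene, was at 11.31 and 11.10 on the deltamethrin arrays, against 11.16 and 10.51 on the vehicle arrays. Vehicle replicate 2 was low, and vehicle replicate 1 lay between the deltamethrin arrays. The log2 fold change was 0.37 ± 0.25 (SE; limma adjusted p = 0.575; 95% interval -0.23 to 0.97). The estimate was 0.05 without vehicle replicate 2 and 0.70 without vehicle replicate 1, so its size rested on those 2 arrays.

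Bcl2l1, which encodes BCL-XL, had 10.04 on both deltamethrin arrays and 9.67 and 10.04 on the vehicle arrays. Vehicle replicate 1 alone set the groups apart, and without it the estimate was 0.00. With all arrays the log2 fold change was 0.19 ± 0.19 (SE; limma adjusted p = 0.732; 95% interval -0.28 to 0.65).

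Mcl1 encodes a short-lived protective protein whose level depends on continued transcription and translation. Its signal was 13.58 and 13.45 on the deltamethrin arrays and 13.66 and 13.64 on the vehicle arrays. It was the 1 member whose difference between group means (0.135) exceeded the gap between replicates in both groups. That gap was 0.13 for deltamethrin, barely smaller than the difference, and 0.02 for vehicle. How many of all probe sets meet this criterion was not counted. The log2 fold change was -0.14 ± 0.17 (SE; limma adjusted p = 0.781; 95% interval -0.53 to 0.26), equal to 0.911-fold with an interval of 0.691-fold to 1.20-fold. With a mean-variance trend, which gives bright probe sets a smaller expected spread, the interval was -0.39 to 0.12.

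By role, the median log2 fold change was -0.04 for the 5 BH3-only members, 0.01 for the single effector and 0.19 for the 3 protective members, beside -0.02 over all probe sets. Estimates were above 0 for 2 of 5 BH3-only members and for 2 of 3 protective members. The protective probe sets averaged 11.64 and 11.53 on the deltamethrin arrays and 11.50 and 11.40 on the vehicle arrays. The groups did not overlap, but their nearest arrays were closer to each other than the replicates of either group were. Among all single probe sets, 43.9% had groups that did not overlap. Of the 3 protective genes taken singly, only Mcl1 did not overlap, and it lay lower with deltamethrin. The BH3-only median turned sign in each fit that left out 1 array (0.02 to 0.06) and with dim probe sets filtered out (0.09 over 2 genes). The protective median ran from 0.00, without vehicle replicate 1, to 0.19 in those fits. The difference between roles was not tested.

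**Figure D2:**
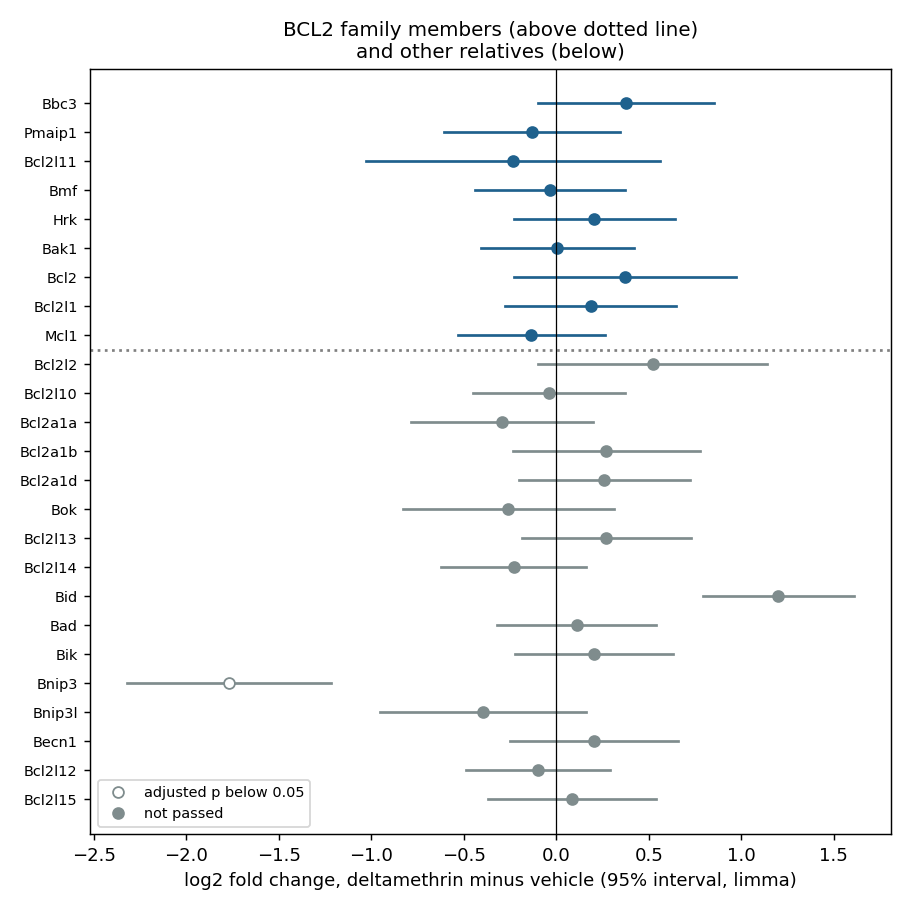
Log2 fold change, deltamethrin minus vehicle, with its 95% interval from limma (n = 2 arrays per group), for the 9 measured members (blue) and for 16 other BCL2 relatives (grey, below the dotted line). All 9 member intervals cross 0, while Bid (1.20) and Bnip3 (-1.77) are set apart among the relatives; the open circle marks an adjusted p below 0.05.

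Sequence upstream of the annotated starts was read for the members. No p53 motif was searched. RefSeq (GRCm38.p6) gave 15 windows for 8 of the 9 measured genes, and none for Pmaip1. Each window covers the 250 bases before a start. The motifs shown, 3 in all, were each searched on both strands, and each is shown on a member whose window held a match. Whether the named factors act on these members here was not tested. These are the composite element of ATF4 and C/EBP proteins (TGATGNAA) in Hrk, the FOXO core (TAAACA) in Bcl2l11, and the GC box of Sp1 (GGGCGG) in the bright member Mcl1. Capitals mark the motif, which in Mcl1 lies on the opposite strand and so reads as its reverse complement.
Hrk, chr5:118169514-118169763, plus strand: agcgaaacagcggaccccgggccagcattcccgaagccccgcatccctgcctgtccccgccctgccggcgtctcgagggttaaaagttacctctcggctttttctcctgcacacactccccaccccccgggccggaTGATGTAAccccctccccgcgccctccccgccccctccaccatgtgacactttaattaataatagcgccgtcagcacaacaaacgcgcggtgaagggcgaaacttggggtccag
Bcl2l11, chr2:128125788-128126037, plus strand: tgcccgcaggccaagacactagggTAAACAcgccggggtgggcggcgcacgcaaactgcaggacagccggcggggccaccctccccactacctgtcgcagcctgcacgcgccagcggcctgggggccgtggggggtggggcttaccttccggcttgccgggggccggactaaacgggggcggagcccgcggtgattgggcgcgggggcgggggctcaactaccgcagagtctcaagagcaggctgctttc
Mcl1, chr3:95658471-95658720, plus strand: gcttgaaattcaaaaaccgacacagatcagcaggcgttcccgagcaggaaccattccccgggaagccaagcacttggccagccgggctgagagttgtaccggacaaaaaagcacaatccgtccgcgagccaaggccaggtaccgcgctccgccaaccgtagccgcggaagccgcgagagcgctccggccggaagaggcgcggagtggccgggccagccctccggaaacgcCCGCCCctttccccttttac

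The composite element began 114 bases before the Hrk start. It was found in 1 of 15 member windows and in 3.45% of all 32851 windows. The FOXO core began 226 bases before the upstream start of Bcl2l11 and also stood in a window of Bbc3, so 2 of 15 windows held it, against 12.0% of all windows. The GC box lay 20 bases before the Mcl1 start. It was found in 8 of 15 member windows, those of Bbc3, Bcl2, Bcl2l11, Hrk and Mcl1, against 32.7% of all windows. Member windows differed in base composition, from 47.6% G and C for a start of Bcl2l1 to 81.6% for one of Bbc3, where the median of all windows was 52.4%. A match describes these letters and no binding was measured.

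Factors that act on BH3-only genes were measured as a list of 8, of which 7 had probe sets and 1 rose. Ddit3, which encodes CHOP, a stress factor that acts on Bcl2l11 and Bbc3 in other systems, was read by 2 probe sets. The brighter had 14.29 and 14.47 on the deltamethrin arrays against 11.45 and 12.17 on the vehicle arrays, a log2 fold change of 2.57 ± 0.26 (SE; limma adjusted p = 0.0261). The dimmer rose by 2.79 ± 0.26 (limma adjusted p = 0.0209). Both calls held under 6 of 12 alternatives. They were lost without moderation and with the replicate block, but those fits called 0 probe sets in the whole table. The rest left out 1 array, and there the estimates ran from 2.21 to 2.93 for the brighter probe set and from 2.42 to 3.16 for the dimmer. Set beside the rise of Ddit3, Bcl2l11 had an estimate of -0.24 and Bbc3 one of 0.38, both short of the test. E2f1, a cell-cycle factor that can also induce BH3-only genes, had 10.98 and 10.74 with deltamethrin and 11.50 and 11.84 with vehicle (log2 fold change -0.81 ± 0.20, limma adjusted p = 0.181). Jun, the AP-1 subunit downstream of JNK, had 9.64 on both deltamethrin arrays and 9.20 and 9.43 on the vehicle arrays (0.33 ± 0.17, limma adjusted p = 0.475). Trp53 had no probe set matched here and was not analysed here.

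Among 16 other relatives of the family 0 rose and 1 fell. Bnip3, an atypical BH3 protein that serves chiefly as a mitophagy receptor under hypoxia, had 9.40 and 8.83 with deltamethrin and 10.95 and 10.82 with vehicle. It fell by 1.77 ± 0.23 on the log2 scale (SE; limma adjusted p = 0.0464). That call held under 5 of 12 alternatives. It was lost with quantile scaling (limma adjusted p = 0.0517). It was also lost without moderation and with the replicate block, but those fits called 0 probe sets in the whole table. The rest left out 1 array, and there the Bnip3 estimate ran from -2.055 to -1.485. Its paralogue Bnip3l, a mitophagy receptor of maturing red cells, had 11.51 and 11.03 with deltamethrin and 11.84 and 11.49 with vehicle, with an estimate of -0.40 ± 0.23 (limma adjusted p = 0.516).

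Bid is the BH3-only gene whose protein caspase-8 cleaves into an activator of BAX and BAK. It had 8.24 and 8.43 on the deltamethrin arrays, against 7.11 and 7.16 on the vehicle arrays. The difference between the groups was several times the gap between replicates in either group. Its log2 fold change was 1.20 ± 0.17 (SE; 95% interval 0.79 to 1.61), or 2.30-fold, and it missed the threshold over all probe sets (limma adjusted p = 0.0582). It passed under 3 of 12 alternatives: a mean-variance trend (adjusted p = 0.0134), cyclic loess scaling (0.0489) and a filter on dim probe sets (0.0210). It did not pass under the other 9. These included median scaling, quantile scaling and robust moderation (limma adjusted p = 0.0557 to 0.0608). They also included fits without moderation and with the replicate block, which called 0 probe sets in the whole table. With 1 array left out the Bid estimate ran from 1.105 to 1.295. The remaining BH3-only relatives Bad and Bik had estimates of 0.11 and 0.21.

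**Figure D3:**
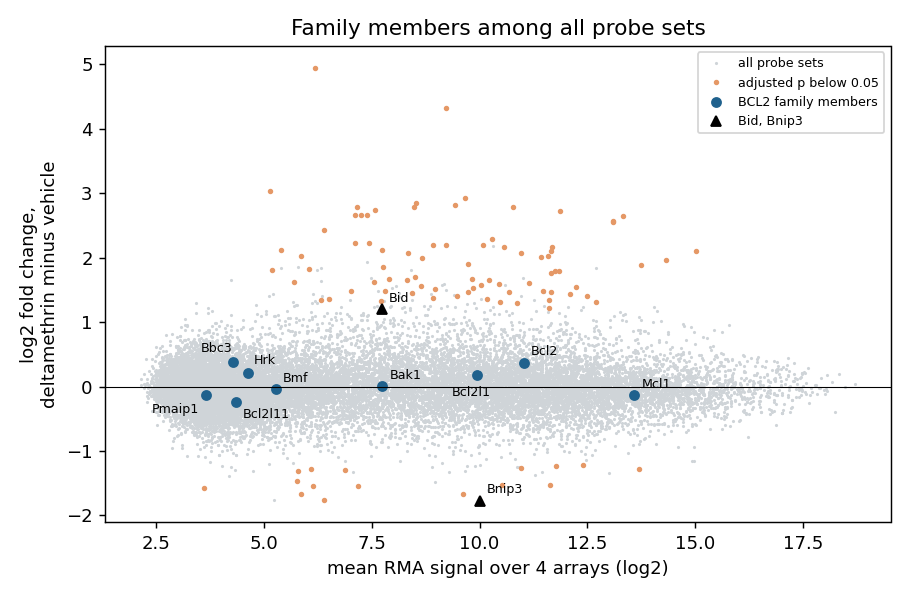
Log2 fold change, deltamethrin minus vehicle, against the mean RMA signal (log2) over 4 arrays for all 22206 probe sets (grey), those with an adjusted p below 0.05 (orange), the 9 measured members (blue circles) and Bid and Bnip3 (black triangles). The members lie between -0.24 and 0.38, inside the grey cloud at every signal level, whereas Bid at 1.20 and Bnip3 at -1.77 lie at its edges.

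None of the other protective relatives passed. Bcl2l2, which encodes BCL-W, a protective protein of neurons and testis, had 7.84 and 8.47 with deltamethrin and 7.46 and 7.81 with vehicle (log2 fold change 0.52 ± 0.26, limma adjusted p = 0.438). The A1 genes Bcl2a1a and Bcl2a1d, members of a cluster of near-identical copies whose probes may read each other's transcripts, were dim, with estimates of -0.30 and 0.26. The effector-like genes Bcl2l13, Bcl2l14 and Bok, the last a relative of BAX and BAK, had estimates of 0.27, -0.23 and -0.26, and the BCL2-like genes Bcl2l12 and Bcl2l15 had -0.10 and 0.09. The median over the 16 relatives was 0.10.

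Downstream of the family, 0 of 9 measured genes of mitochondrial release and the apoptosome passed, with a median of -0.06. Aifm1, which encodes apoptosis-inducing factor, had 11.93 and 12.27 with deltamethrin and 12.57 and 12.67 with vehicle (log2 fold change -0.52 ± 0.19, limma adjusted p = 0.313). Xiap, a caspase inhibitor, had an estimate of -0.32 ± 0.16 (limma adjusted p = 0.460). The serine protease gene Htra2, whose product leaves mitochondria and antagonises inhibitor proteins, had one of 0.27. On the death receptor route that leads to BID, 0 of 6 genes passed, and the median was 0.14. Cflar, which encodes the caspase-8 inhibitor FLIP, had 6.78 and 7.15 with deltamethrin and 6.55 and 6.58 with vehicle (0.40 ± 0.19, limma adjusted p = 0.421). The receptor gene Tnfrsf1a was at 0.37 and Casp8 at 0.19.

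Among genes for turnover and binding partners of the members, 0 of 9 measured passed, with a median of -0.15. Bag3, a cochaperone that stabilises protective members, had 12.71 and 12.60 with deltamethrin and 13.25 and 13.23 with vehicle (log2 fold change -0.59 ± 0.16, limma adjusted p = 0.217). Tmbim6, which encodes BAX inhibitor-1 of the endoplasmic reticulum, was at 0.31 ± 0.17 (limma adjusted p = 0.477). Dynll1, the dynein light chain that holds BIM, was at -0.30 ± 0.19 (limma adjusted p = 0.566).

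**Figure D4:**
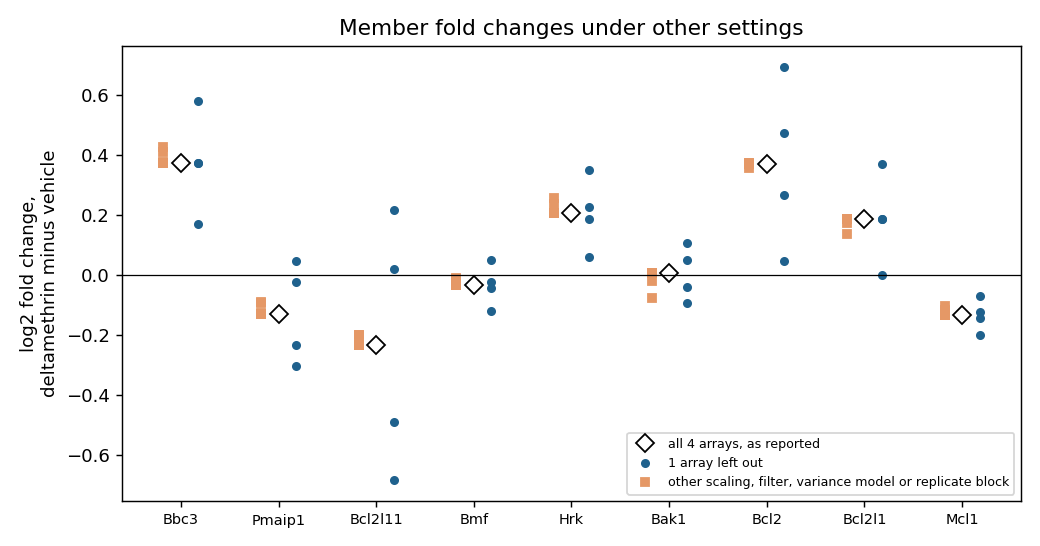
Log2 fold change of each measured member, deltamethrin minus vehicle, with all 4 arrays (open diamonds), with 1 array left out (blue circles) and under other scaling, filter, variance model or replicate block (orange squares). Leaving out 1 array moved Bcl2l11 between -0.69 and 0.22 and Bcl2 between 0.05 and 0.70, and moved Mcl1 between -0.20 and -0.07.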

How the data were processed

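Total RNA with an integrity number above 9 (500 ng per labelling) was hybridised to 4 arrays, 2 per group, and groups and replicate numbers came from the sample titles. The deposited values, 1 per probe set and array, are log2 signals that the authors obtained with Transcriptome Analysis Console and RMA (robust multi-array average), per the submitters' processing notes, with software versions not given in the sources used here. That the scale is log2 was inferred from the range of the values (1.92 to 18.75). All 22206 probe sets were fitted with limma (version 3.58.1, R 4.3.3) for deltamethrin minus vehicle by the default lmFit and eBayes, two-sided, with 2 residual and 4.43 prior degrees of freedom. Benjamini-Hochberg adjustment ran over the whole table, and calls were made at an adjusted p under 0.05. Errors are SEs of the fit. Intervals are 95%, single-gene and not adjusted. Precision is limited by the number of arrays. The fit was tested on simulated data.

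Probe sets were named from the platform annotation: 19572 had 1 symbol, 0 had several and 2634 were unnamed here. The members and the other gene lists were chosen with earlier results of these data known. All measured members are named. From each list of relatives, regulators and partners every called gene and the 3 of smallest p are named, plus Bnip3, Ddit3 and Trp53. Bad, Bik and the named markers were added after their values were seen. Promoter windows came from a RefSeq table.

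Alternatives were a mean-variance trend, robust moderation, no moderation, the replicate block, quantile, cyclic loess and median scaling, a filter at the 40th percentile, adjusted p thresholds of 0.01 and 0.10, and leaving out each array. For Bid, Bnip3 and Ddit3 these were run after seeing the data.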

Additional observations from a re-analysis of the deposited data

How the results depend on the processing

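The counts of 0 members higher and 0 lower held under every alternative run with all 4 arrays. Without moderation and with the replicate block no probe set in the whole table was called, so a member count of 0 there adds nothing. At an unadjusted p below 0.05 the alternatives with all 4 arrays also gave 0 members. The count of all called probe sets, 96, was 806 with a mean-variance trend (500 higher, 306 lower), 312 of 13320 with dim probe sets left out, 233 at an adjusted p below 0.10, 5 at one below 0.01 and 0 without moderation. It was also 0 with the replicate block. In the 4 fits that left out 1 array, the lone array was assumed to vary like the other group, so only their estimates are given. The equal numbers of the replicates are not stated to mark a shared culture. The deviations of same-numbered arrays correlated at 0.13 over probe sets. The fit with the replicate block called 0 probe sets in the whole table, so its lack of member calls does not say whether pairing matters. Signs turned for Pmaip1 (-0.305 to 0.045 with 1 array left out), Bcl2l11 (-0.69 to 0.22), Bmf (-0.12 to 0.05) and Bak1 (-0.10 to 0.11, and -0.079 with quantile and -0.0215 with cyclic loess scaling); the cause was not tested. With 1 array left out the BH3-only median ran from 0.02 to 0.06, the effector value from -0.10 to 0.11 and the protective median from 0.00 to 0.19, against -0.04, 0.01 and 0.19 with all arrays. The filter on dim probe sets removed Bbc3, Pmaip1 and Bcl2l11, whose signals limit what can be seen of them.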
